A study of Mus musculus with 6 samples.

Results

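The collagen chain genes were taken as every gene whose symbol on the array platform reads Col, digits, a, digits. This rule found 41 genes with 91 probes, of 19057 named genes and 45281 probes on the array. They comprised 11 fibrillar collagen genes, 6 basement membrane (type IV) collagen genes and 24 genes of other collagen types. Total RNA of newborn mouse ovary was hybridised to 6 arrays of 1 Illumina MouseWG-6 BeadChip, that is, all on 1 slide. The double-knockout group had 4 arrays (numbered 1, 2, 3 and 5 by their titles) from newborns lacking Sohlh1 and Sohlh2, and the wildtype group had 2 arrays (numbered 2 and 3) from newborns with neither knockout. Both groups carried the same mixed strain background, C57BL/6/129S6/SvEv. Nothing in the labels tells whether each array came from its own animal or litter, nor how the alleles were made. The p-values therefore cover the spread among these 6 arrays alone, which may be technical.

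Collagens are secreted proteins in which alpha chains wind into a triple helix, each chain being the product of its own gene. Fibrillar collagens assemble into the fibres that carry tension in connective tissue, type IV collagens form the sheet-like network of basement membranes, and the remaining types link, anchor or coat these structures or sit in the cell membrane. In the ovary, fibrillar collagens are known from the stroma, and type IV collagens surround the follicles and blood vessels. Sohlh1 and Sohlh2 are germ cell transcription factors of the basic helix-loop-helix family, which bind DNA at E-boxes and are needed for early oocyte differentiation.

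The targeted genes were checked first. The brightest Sohlh1 probe read 9.68, 9.40, 9.74 and 9.81 on double-knockout arrays 1, 2, 3 and 5, against 12.89 and 13.01 on wildtype arrays 2 and 3, in log2 units of background-corrected and quantile-normalized signal. Both Sohlh1 probes were lower on every double-knockout array, with log2 fold changes (double knockout minus wildtype) of -3.33 and -3.29 and an adjusted p of 3.41e-05 for each in limma's moderated test. They stayed above background on all 4 double-knockout arrays, and whether they lie in the deleted part is not given in the sources used here. The Sohlh2 probe was detected on 0 double-knockout arrays and 1 wildtype array and was not tested, so it does not check the labels. Markers of the newborn ovary were present: of 7 oocyte and germ cell markers, all tested, 4 fell and 0 rose in the double knockout, and of 7 pregranulosa markers, all tested, 0 fell and 2 rose, Hsd17b1 and Amhr2. The Amhr2 call (adjusted p = 0.0491) held in 7 of 17 alternatives, with adjusted p-values of 0.0230 to 0.349, and was lost whichever single array was left out. The pregranulosa factor Foxl2 was near background, being detected on 2 double-knockout arrays and 1 wildtype array. In RNA of whole ovary, fewer cells of a type and less RNA per cell cannot be told apart.

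Most collagen chains gave a signal in the newborn ovary. A probe counted as detected on an array where its detection p was under 0.05, and it was tested where it was detected on at least 2 of the 6 arrays. By that rule 55 collagen probes of 35 genes were tested, among 21981 tested probes of the array. Between 48 and 52 of the 91 collagen probes were detected on a double-knockout array, against 51 and 53 on the wildtype arrays, and 33 probes were detected on no array. Of the 11 fibrillar genes 10 were tested, of the 6 basement membrane genes all 6, and of the 24 other genes 19. The 6 untested genes were Col5a3, a minor fibrillar chain; Col6a4 and Col6a6, chains of type VI collagen; Col10a1, known from hypertrophic cartilage; Col13a1, a transmembrane collagen; and Col19a1, a fibril-associated collagen. Each of these was detected on 0 arrays, which places it below the array's background and does not show that its RNA was absent. Col6a3, Col12a1 and Col20a1, which the RefSeq gene table lists, had no probe of that symbol and were not analysed here.

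Few collagen probes differed between the genotypes. At an adjusted p under 0.05, 1 of the 55 tested collagen probes was lower in the double knockout, a dim Col8a2 probe, and 0 were higher. Across the array 7.27% of tested probes passed in either direction, 3.62% lower and 3.65% higher. At an unadjusted p under 0.05, 9 collagen probes were lower and 1 was higher, which makes 16.4% lower, against 12.4% of all tested probes lower and 12.1% higher. When genes were counted by their brightest tested probe, 0 of 35 collagen genes passed in either direction, against 8.38% of 12163 tested genes.

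The sizes of the differences were small and leaned to the lower side. The log2 fold changes of the 55 probes ran from -0.76 to 0.40, with a median of -0.10, against a median of 0 over all tested probes. They were negative for 35 probes and positive for 20, which is 63.6% negative against 50% of all tested probes. All 4 double-knockout arrays lay below both wildtype arrays for 10 collagen probes, 18.2%, against 17% of all tested probes, and above both for 4, 7.27%, against 17.8%. The genotypes overlapped for the other 41 probes. The 95% interval of the fold change lay inside a 2-fold change either way for 47 of the 55 probes, 85.5%, against 85% of all tested probes. For the other 8 probes a change of 2-fold was inside the interval, and the widest bounds were -1.42 and 0.79. A p that misses the threshold does not show that the genotypes had equal levels.

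**Figure D1:**
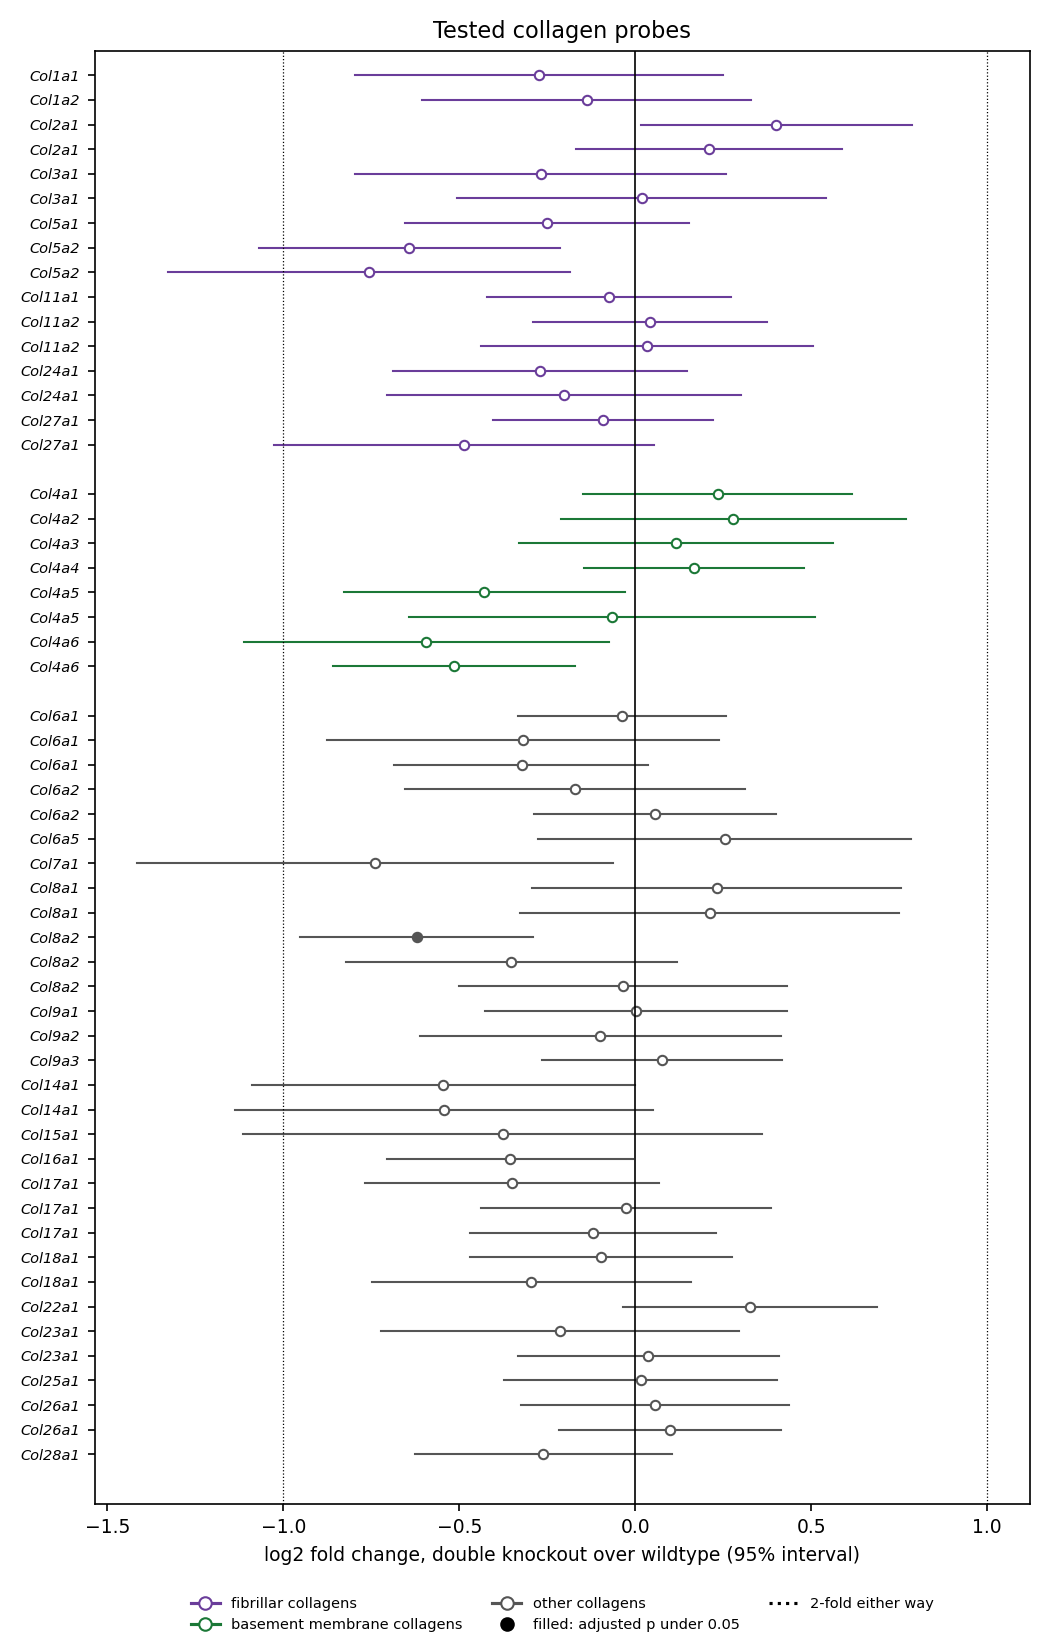
Log2 fold change of each tested collagen probe, double knockout over wildtype, on the x axis, with its 95% interval as a bar, grouped into fibrillar (top), basement membrane and other collagens. Filled points passed an adjusted p of 0.05 (1 Col8a2 probe) and dotted lines mark a 2-fold change, which 8 of the 55 intervals reach.

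The fibrillar collagens showed no change that passed the test. Of 16 tested probes, 11 had a negative and 5 a positive log2 fold change, with a median of -0.17. By brightest probe, 8 genes were negative and 2 positive, with a median of -0.26. Over all tested genes 46.9% were negative, and the median was 0.03. Col1a1 encodes the main chain of type I collagen, the most abundant collagen of connective tissue. Its probe read 11.50, 12.22, 11.48 and 11.75 on double-knockout arrays 1, 2, 3 and 5, against 11.80 and 12.23 on wildtype arrays 2 and 3. Double-knockout array 2 was level with the higher wildtype array, and the groups overlapped. Col1a1 averaged 11.74 ± 0.34 in the double knockout (SD, n = 4) and 12.01 ± 0.30 in wildtype (SD, n = 2), a log2 fold change of -0.27 ± 0.23 (SE) with an adjusted p of 0.509.

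Col1a2 encodes the partner chain of Col1a1 in type I collagen. It read 7.32, 7.92, 7.20 and 7.36 on the double-knockout arrays, against 7.51 and 7.67 on the wildtype arrays. Double-knockout array 2 was the highest and array 3 the lowest of the 6 arrays, and the groups overlapped. The log2 fold change was -0.14 ± 0.21 (SE; adjusted p = 0.732). Col3a1, the chain of type III collagen, which forms fine fibres beside type I, read 8.03, 8.65, 7.76 and 8.14 in the double knockout, against 8.56 and 8.26 in wildtype. Double-knockout array 2 was again the highest and array 3 the lowest of the 6. Its log2 fold change was -0.27 ± 0.23 (adjusted p = 0.522), while a second, dimmer Col3a1 probe gave 0.02 (adjusted p = 0.973).

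The brightest probes of Col1a1, Col1a2 and Col3a1 thus shared their highest and lowest double-knockout arrays. RefSeq promoter windows of GRCm38.p6 were available for 33 of the 41 collagen genes, and the 250 bases before the gene start were searched on both strands. The windows of Col1a2 and Col3a1 are shown because their brightest probes ordered the double-knockout arrays alike. The brightest probes of Col1a1, Col5a1, Col14a1, Col15a1 and Col23a1 had that order too, so it does not set this pair apart. The wildtype order of Col1a2 and Col3a1 differed, and the dimmer Col3a1 probe was lowest on double-knockout array 5. The window of Col8a2 is shown because that gene held the probe that passed the test. Capitals mark CCAAT, the kind of box that NF-Y is known to bind. Whether NF-Y binds the marked box was not tested. The windows lie on the forward strand at chr6:4505368-4505617 (Col1a2), chr1:45311288-45311537 (Col3a1) and chr4:126286544-126286793 (Col8a2).
Col1a2: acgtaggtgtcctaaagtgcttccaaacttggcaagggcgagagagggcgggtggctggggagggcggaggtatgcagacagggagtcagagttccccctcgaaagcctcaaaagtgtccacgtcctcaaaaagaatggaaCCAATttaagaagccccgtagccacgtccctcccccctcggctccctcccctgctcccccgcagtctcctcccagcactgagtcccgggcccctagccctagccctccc
Col3a1: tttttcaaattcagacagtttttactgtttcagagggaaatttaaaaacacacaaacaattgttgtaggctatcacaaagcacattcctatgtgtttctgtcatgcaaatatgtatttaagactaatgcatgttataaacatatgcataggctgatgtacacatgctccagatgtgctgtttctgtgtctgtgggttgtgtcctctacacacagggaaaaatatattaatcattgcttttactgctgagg
Col8a2: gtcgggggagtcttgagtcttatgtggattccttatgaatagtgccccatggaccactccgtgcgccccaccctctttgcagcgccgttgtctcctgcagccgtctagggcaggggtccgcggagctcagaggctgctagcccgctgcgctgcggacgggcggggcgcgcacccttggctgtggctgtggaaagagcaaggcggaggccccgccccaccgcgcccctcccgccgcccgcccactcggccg
The Col1a2 window held 1 CCAAT, on the forward strand 105 bases before the start, and the windows of Col3a1 and Col8a2 held 0. CCAAT was found in a window of 13 of the 33 collagen genes, 39.4%, against 37.5% of 27025 genes in all. The E-box CANNTG, the kind of site that basic helix-loop-helix factors bind, occurred 4 times in the Col3a1 window and 0 times in those of Col1a2 and Col8a2. It was found in a window of 19 of the 33 collagen genes, 57.6%, against 69.3% of all genes. The GC box GGGCGG, bound by Sp1, occurred 2 times in the Col1a2 window, 4 times in the Col8a2 window and 0 times in the Col3a1 window. It was found in a window of 21 of the 33 collagen genes, 63.6%, against 35.4% of all genes. CCAAT and CANNTG can share letters, and a match in a window is a description of its letters only.

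Among the remaining fibrillar chains, Col5a2 had the lowest fold changes. Types V and XI are minor fibrillar collagens known to set the start and the width of fibres, and Col5a2 is a chain of type V. Its brighter probe read 7.36, 7.45, 6.98 and 7.06 on double-knockout arrays 1, 2, 3 and 5, against 8.06 and 7.65 on wildtype arrays 2 and 3. Its dimmer probe read 6.04, 5.78, 5.07 and 5.92 in the double knockout, against 6.45 and 6.47 in wildtype. On both probes all 4 double-knockout arrays lay below both wildtype arrays, and array 3 was the lowest. The log2 fold changes were -0.64 ± 0.19 (95% interval -1.07 to -0.21, adjusted p = 0.0745) and -0.76 ± 0.25 (95% interval -1.33 to -0.19, adjusted p = 0.104), so neither passed the threshold. In RefSeq order Col5a2 is the direct neighbour of Col3a1.

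Col5a1, the other type V chain on the array with a signal, read 12.30, 12.57, 12.05 and 12.36 in the double knockout, against 12.41 and 12.73 in wildtype. The groups overlapped, and the log2 fold change was -0.25 ± 0.18 (adjusted p = 0.429). Col2a1, the main chain of cartilage collagen, was dim on both of its tested probes. The first read 4.52, 5.03, 4.95 and 4.82 in the double knockout, where it was detected on 3 arrays, against 4.35 and 4.51 in wildtype, where it was detected on 0. All double-knockout arrays lay above both wildtype arrays, array 1 only just; the fitted log2 fold change was 0.40 ± 0.17 (adjusted p = 0.189) and the ratio, with wildtype set at the lowest detected signal, was at least 1.08-fold. The second Col2a1 probe gave 0.21 (adjusted p = 0.485).

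The cartilage chains Col11a1 and Col11a2, which co-assemble with type II collagen, were also dim, with log2 fold changes of -0.08 for Col11a1 and 0.04 and 0.03 for Col11a2. Col24a1, a fibrillar chain known from developing bone, had -0.27 and -0.20 on its 2 tested probes. Col27a1, a fibrillar chain known from cartilage, had -0.49 (95% interval -1.03 to 0.05) on its brighter probe and -0.09 on its dimmer one. None of these passed the test. Of 10 cartilage and bone markers, 7 were not tested because they were at background, Acan and Matn1 among them, and the summed signal of the 3 tested ones was 77 to 87 in the double knockout, against 68 and 92 in wildtype.

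**Figure D2:**
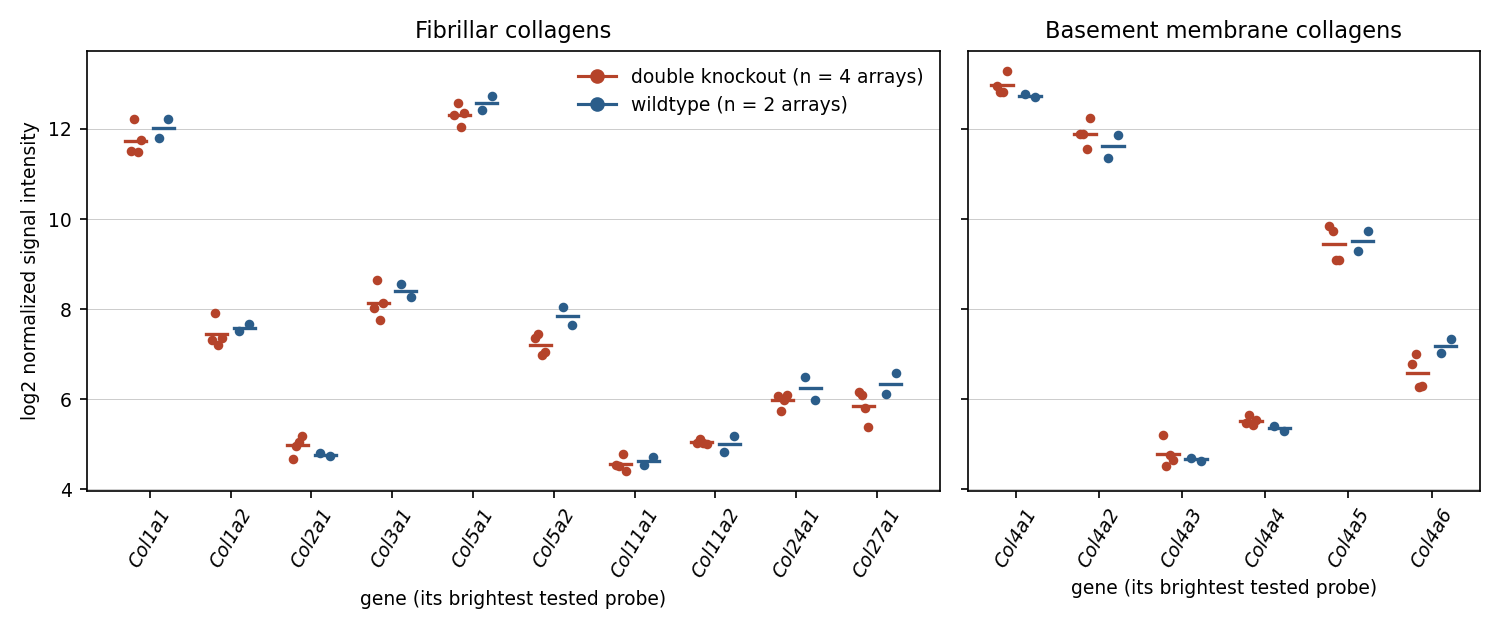
Log2 normalized signal (y axis) of the brightest tested probe of 10 fibrillar and 6 basement membrane collagen genes, with 1 point per array, double knockout (4 arrays) left of wildtype (2 arrays), and bars at the group means. The groups overlap for most genes; all double-knockout points lie below wildtype for Col5a2 and Col4a6 and above it for Col4a1 and Col4a4.

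Of the 8 tested probes of basement membrane collagens, 0 passed. The chains of type IV collagen are encoded by gene pairs that lie head to head, Col4a1 with Col4a2, Col4a3 with Col4a4 and Col4a5 with Col4a6. By brightest probe, 2 genes were negative and 4 positive, with a median log2 fold change of 0.14. The median log2 fold change of the 8 probes was 0.03, with 4 negative and 4 positive. The negative ones were all from Col4a5 and Col4a6, and the positive ones from the other 4 chains. Some of these signs rest on values near background or near 0. Col4a3 met the rule for testing only through double-knockout arrays, and the brighter Col4a5 probe changed sign in 4 of 17 alternatives. Leaving out single arrays moved the median between -0.20 and 0.10.

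Col4a1 and Col4a2 make the type IV network found in nearly all basement membranes. Col4a1 read 12.96, 12.83, 12.83 and 13.29 on double-knockout arrays 1, 2, 3 and 5, against 12.78 and 12.70 on wildtype arrays 2 and 3. All double-knockout arrays were above both wildtype arrays, array 5 by the most, and the log2 fold change was 0.24 ± 0.17 (95% interval -0.15 to 0.62, adjusted p = 0.434). Col4a2 read 11.88, 11.89, 11.55 and 12.25 in the double knockout, against 11.37 and 11.86 in wildtype. Array 5 was again the highest, the groups overlapped, and the log2 fold change was 0.28 ± 0.22 (adjusted p = 0.472). Markers of endothelium, a cell type that lies on such a membrane, had a summed signal of 4348 to 5383 in the double knockout, against 3613 and 4216 in wildtype, with 0 of 6 tested markers passing and 2 of the 6 negative. Their part in the Col4a1 and Col4a2 values was not tested.

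Col4a3 and Col4a4, chains known from the kidney's filtration membrane, were dim. Col4a3 was detected on 2 double-knockout arrays and 0 wildtype arrays and had a log2 fold change of 0.12 (adjusted p = 0.764). With wildtype set at the lowest detected signal, its ratio was at least 1.04-fold. Col4a4 read 5.46, 5.66, 5.44 and 5.53 in the double knockout, against 5.41 and 5.30 in wildtype. Its double-knockout arrays were all above wildtype, though array 3 only just exceeded wildtype array 2, and the log2 fold change was 0.17 (adjusted p = 0.50).

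Col4a5 and Col4a6, the X-linked chains of smooth muscle and epithelial basement membranes, had negative log2 fold changes. The brighter Col4a6 probe read 6.79, 6.99, 6.26 and 6.30 in the double knockout, against 7.03 and 7.33 in wildtype. The dimmer probe read 4.69, 4.79, 4.51 and 4.42 in the double knockout, where it was detected on 1 array, against 5.15 and 5.09 in wildtype, where it was detected on both. Every double-knockout array lay below both wildtype arrays on both probes, with array 2 nearest to wildtype. The log2 fold changes were -0.59 ± 0.23 (95% interval -1.11 to -0.08, adjusted p = 0.151) and -0.52 ± 0.15 (95% interval -0.86 to -0.17, adjusted p = 0.0754).

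The 2 Col4a5 probes disagreed. One read 9.41, 9.36, 9.07 and 9.20 in the double knockout, against 9.92 and 9.46 in wildtype, with all double-knockout arrays lower and a log2 fold change of -0.43 ± 0.18 (adjusted p = 0.175). The other read 9.84, 9.74, 9.09 and 9.09 in the double knockout, against 9.29 and 9.73 in wildtype, with overlapping groups and -0.07 ± 0.26 (adjusted p = 0.906). Markers of smooth muscle and pericytes, cells known to make these chains, had a summed signal of 13152 to 18312 in the double knockout, against 18344 and 20459 in wildtype, and 0 of 6 tested markers passed. That sum is mostly Acta2, and over the 6 markers 3 log2 fold changes were negative and 3 positive (Cspg4 0.30, Myh11 0.16 and Rgs5 0.16), with a median of -0.08. Surface and mesonephric epithelium markers summed to 5010 to 7657 in the double knockout, against 6723 and 7855 in wildtype, with 0 of 8 passing and all 8 negative. Their part in the Col4a5 and Col4a6 values was not tested.

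Among the other collagens, 1 of 31 tested probes passed. The median log2 fold change was -0.10, with 20 negative and 11 positive, and the 19 tested genes had the same median. Col8a2 encodes a chain of type VIII collagen, a short-chain collagen that builds hexagonal lattices, known from the membrane beneath the corneal endothelium. The probe that passed read 4.46, 4.58, 4.29 and 4.53 on double-knockout arrays 1, 2, 3 and 5, against 5.18 and 4.99 on wildtype arrays 2 and 3. It was not well above background on any double-knockout array and was detected on both wildtype arrays, so it met the rule for testing only through the wildtype arrays and the fold is a bound. The probe was at least 1.26-fold lower when the double-knockout arrays are set at the lowest detected signal; the fitted log2 fold change was -0.62 ± 0.15 (95% interval -0.95 to -0.29, adjusted p = 0.0379).

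The other 2 Col8a2 probes were brighter and did not pass. The brightest read 9.67, 10.26, 9.61 and 9.60 in the double knockout, against 10.03 and 10.24 in wildtype. Double-knockout array 2 stood apart from the other double-knockout arrays and exceeded both wildtype arrays, while the other 3 lay below both. Its log2 fold change was -0.35 ± 0.21 (adjusted p = 0.341), and that of the third probe was -0.03 ± 0.21 (adjusted p = 0.940). The call of the dim probe held in 3 of 13 alternative settings, with adjusted p-values of 0.0293 to 0.125 over all 13. Without double-knockout array 1, 3 or 5 its adjusted p was 0.0831, 0.0680 or 0.0512, and without a wildtype array it was not detected often enough to be tested. Col8a1, the other type VIII chain, had 0.23 and 0.21 on its 2 tested probes (adjusted p = 0.585 and 0.633).

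Type VI collagen forms beaded filaments around cells, and 2 of its main chains had bright probes. The brightest Col6a1 probe read 13.02, 13.08, 12.66 and 12.95 in the double knockout, against 13.20 and 13.31 in wildtype. All double-knockout arrays were lower, array 3 by the most, and the log2 fold change was -0.32 ± 0.16 (adjusted p = 0.253). A second Col6a1 probe of nearly the same brightness read 12.59, 12.61, 12.48 and 12.52 in the double knockout, against 12.60 and 12.57 in wildtype, with overlapping groups and -0.04 ± 0.13 (adjusted p = 0.892). The third, dim Col6a1 probe had -0.32 (adjusted p = 0.470). Col6a2 had -0.17 on its brighter probe and 0.06 on its dimmer one, and Col6a5, a chain that can take the place of Col6a3, had 0.25; none passed.

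The fibril-associated collagens, which sit on the surface of fibres, were mixed. Col14a1, known to regulate fibre growth, read 8.85, 9.61, 8.74 and 8.93 in the double knockout, against 9.45 and 9.70 in wildtype. Only double-knockout array 2 reached the wildtype range. The log2 fold change was -0.55 ± 0.24 (adjusted p = 0.203), a second probe gave -0.54 (adjusted p = 0.243), and without double-knockout array 2 the first probe passed at -0.74 (adjusted p = 0.0347). Col16a1 read 10.59, 10.84, 10.50 and 10.46 in the double knockout, against 10.90 and 11.01 in wildtype. All its double-knockout arrays were lower, and the log2 fold change was -0.36 ± 0.16 (adjusted p = 0.198). Col22a1, known from tissue junctions such as that of muscle and tendon, read 6.11, 6.43, 6.06 and 6.29 in the double knockout, against 5.78 and 6.01 in wildtype, all higher, with 0.33 ± 0.16 (adjusted p = 0.248). The type IX chains, partners of type II collagen, had log2 fold changes of 0.00 for Col9a1, -0.10 for Col9a2 and 0.08 for Col9a3.

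Col7a1 makes the anchoring fibrils beneath stratified epithelia. It read 6.58, 7.09, 6.06 and 7.25 in the double knockout, against 7.41 and 7.56 in wildtype. All double-knockout arrays were lower but spread over more than 1 log2 unit, with array 3 the lowest. The log2 fold change was -0.74 ± 0.30 (95% interval -1.42 to -0.06, adjusted p = 0.169). Of 6 skin epidermis markers 3 were tested, and 0 passed. They summed to 716 to 1196 in the double knockout, against 1313 and 1339 in wildtype. Of these 3 markers, 2 had negative log2 fold changes and Lor had 0.095. The sum was lowest on double-knockout array 5, where Col7a1 was the highest of the double-knockout arrays. The part of these markers in the Col7a1 value was not tested.

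The multiplexins Col15a1 and Col18a1 lie in basement membranes. Col15a1 read 8.78, 9.78, 8.61 and 8.90 in the double knockout, against 9.03 and 9.76 in wildtype. It varied by more than 1 log2 unit among the double-knockout arrays, with array 2 the highest of all 6, and the log2 fold change was -0.38 ± 0.33 (adjusted p = 0.520). Col18a1, the precursor of endostatin, read 12.65, 12.53, 12.47 and 12.94 in the double knockout, against 12.74 and 12.75 in wildtype, with -0.10 ± 0.16 (adjusted p = 0.760) and -0.30 on a dimmer probe. Its double-knockout arrays lay on both sides of wildtype.

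The transmembrane collagens showed no shift beyond the spread. Col17a1, of the junction between epithelium and basement membrane, had log2 fold changes of -0.03, -0.12 and -0.35 on its 3 probes (adjusted p = 0.951, 0.683 and 0.285). On the last of these all double-knockout arrays were below wildtype. Col23a1 had 0.04 and -0.21 on its 2 tested probes, and Col25a1, known from nerve and muscle, had 0.02. Col26a1 had 0.10 on its brighter probe and 0.06 on its dimmer one, where the brighter probe read 10.93, 11.15, 11.14 and 11.05 in the double knockout, against 10.90 and 11.04 in wildtype. Col28a1, known from peripheral nerve, had -0.26 (adjusted p = 0.362). Of the 17 collagen genes with several tested probes, Col3a1, Col6a2 and Col23a1, 3 in all, had probes of opposite sign.

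Collagen genes varied together between arrays of the same genotype. Over the 35 tested genes, by their brightest probe, double-knockout array 2 was the highest of the double-knockout arrays for 20 genes, 57.1%, against 26% of all 12163 tested genes. Double-knockout array 3 was the lowest for 22 genes, 62.9%, against 24.9% of all. The median deviation from the double-knockout mean was -0.02, 0.21, -0.19 and -0.02 on arrays 1, 2, 3 and 5, while over all tested genes it stayed within 0.005 of 0. Of the wildtype arrays, array 3 was the higher for 26 of the 35 genes, 74.3%, against 49.7% of all, with median deviations of -0.09 for array 2 and 0.09 for array 3. The deviations of double-knockout arrays 2 and 3 were larger in size than the median log2 fold change of -0.10 between the genotypes. The genes are not independent replicates, so this is a description of these arrays.

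By class, double-knockout array 2 was the highest for 6 of 10 fibrillar genes and 12 of 19 other genes, and for 2 of 6 basement membrane genes. Array 3 was the lowest for 5 of 10 fibrillar, 13 of 19 other and 4 of 6 basement membrane genes. Wildtype array 3 was the higher wildtype array for 6 of 10 fibrillar, 17 of 19 other and 3 of 6 basement membrane genes. Among the marker lists, the surface and mesonephric epithelium sum was 6666, 7657, 5447 and 5010 on double-knockout arrays 1, 2, 3 and 5, and the smooth muscle and pericyte sum was 13152, 18312, 16353 and 14991; both were highest on array 2. So were the skin epidermis sum, at 1030, 1196, 1019 and 716, and the skeletal muscle sum, at 288, 561, 480 and 335. The sum of genes for propeptide removal and crosslinking was 19076, 20823, 16672 and 18445, and that of collagen-degrading proteases and inhibitors was 21319, 22636, 18085 and 20818. Like the collagens, these last sums were highest on array 2 and lowest on array 3. They weigh bright genes such as Loxl1, Mmp2 and Mmp14 most, and single genes of these lists differed in order. The sums for chain modification and folding, fibril-binding proteins and collagen receptors were highest on array 2 but not lowest on array 3. Those for basement membrane partners and the TGF-beta pathway were lowest on array 3 but highest on array 5. The stromal mesenchyme sum was 5604, 4678, 4090 and 4365 on the double-knockout arrays, highest on array 1 and lowest on array 3. In wildtype it was 4394 and 4038, and 0 of 7 tested markers passed. That sum is mostly Pdgfra and Tcf21. Of the 7 markers, 3 had negative log2 fold changes (Thy1 -1.17, Nr2f2 -0.52 and Twist1 -0.33) and the others positive ones, with a median of 0.13. The part of these lists in the array pattern was not tested. Without double-knockout arrays 2 and 3, 0 collagen probes passed in either direction and the median log2 fold change of the collagen probes was -0.15.

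**Figure D3:**
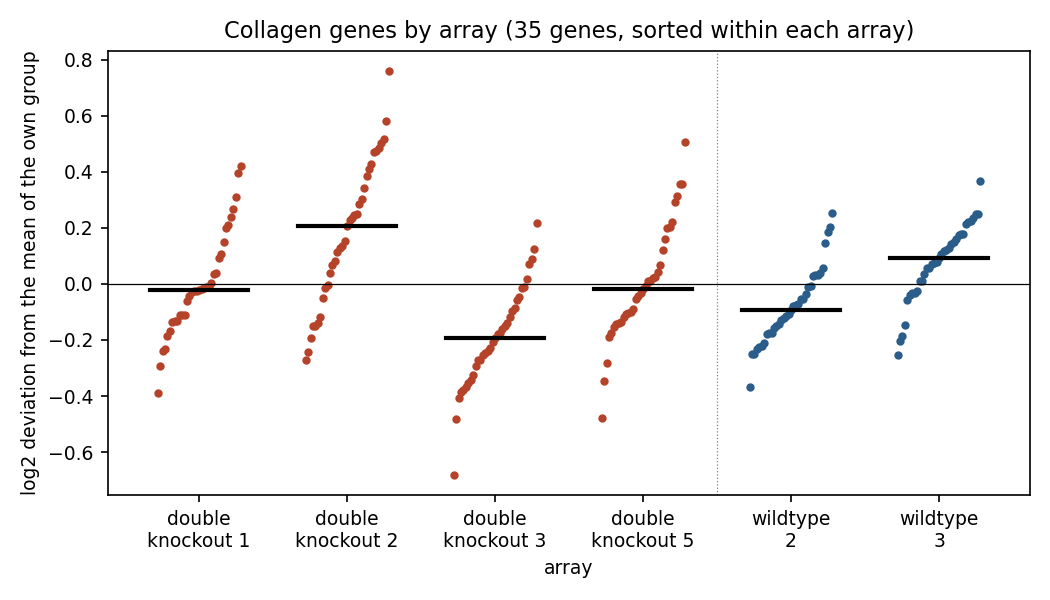
Deviation of each of the 35 tested collagen genes (1 point per gene, brightest probe, sorted within the array) from the mean of its own genotype, in log2 units on the y axis, for the double-knockout arrays left of the wildtype arrays, with bars at the medians. Most genes sit above 0 on double-knockout array 2 (median 0.21) and below 0 on array 3 (median -0.19).

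The genes around the collagens were followed in 7 lists by role, with 81 tested genes in all. Of these 0 were lower and 3 were higher in the double knockout at an adjusted p under 0.05, which is 3.7% higher, against 3.58% of all tested genes lower and 4.79% higher. The median log2 fold change of the 81 genes was -0.01, against 0.03 over all tested genes. The 3 genes were P4ha1, Ddr1 and Itga11.

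Collagen chains are hydroxylated, glycosylated and folded in the endoplasmic reticulum before they leave the cell. Of 18 tested genes for these steps, 1 rose, 0 fell and 17 did not pass, with a median log2 fold change of 0.04. P4ha1 encodes the catalytic subunit of the prolyl 4-hydroxylase that stabilises the triple helix. It read 7.53, 6.96, 7.29 and 7.33 on double-knockout arrays 1, 2, 3 and 5, against 6.33 and 6.46 on wildtype arrays 2 and 3. Every double-knockout array was above both wildtype arrays, array 2 by the least, and P4ha1 rose 1.84-fold (log2 fold change 0.88 ± 0.18, SE, adjusted p = 0.0203). A second P4ha1 probe gave 0.46 and did not pass (adjusted p = 0.346). The call was lost in 5 of 17 alternatives. In 3 of them 1 array was left out, double-knockout array 1, wildtype array 2 or wildtype array 3, with an adjusted p of 0.0501, 0.180 or 0.0949, and in the other 2 a replicate number was a block.

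Outside the cell, propeptides are cut off, fibres are crosslinked and other proteins bind to them. Of 6 tested genes for propeptide removal and crosslinking, 0 passed, with a median of -0.06. The brightest were the crosslinking enzymes Loxl1, with a log2 fold change of -0.04 ± 0.14, and Tgm2, with -0.08 ± 0.16. Of 14 tested fibril-binding proteoglycans and matricellular proteins, 0 passed, with a median of -0.10. Decorin (Dcn), which coats fibres and sets their spacing, read 13.66, 13.73, 13.56 and 13.57 in the double knockout, against 13.77 and 13.68 in wildtype, and Sparc, a collagen-binding protein, had a log2 fold change of -0.03 ± 0.15. Of 11 tested partners of type IV collagen in basement membranes, 0 passed, with a median of -0.05; the brightest were agrin (Agrn), at 0.29 ± 0.20, and perlecan (Hspg2), at 0.48 ± 0.34. Hspg2 read 11.06, 11.41, 10.54 and 11.74 in the double knockout, against 10.24 and 11.16 in wildtype, with overlapping groups.

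Among receptors that bind collagen, 2 of 7 tested genes rose and 0 fell, with a median log2 fold change of 0.02. Ddr1 encodes a receptor tyrosine kinase that binds collagen directly and is known mainly from epithelial cells. It read 8.77, 9.21, 9.16 and 9.35 on double-knockout arrays 1, 2, 3 and 5, against 7.79 and 8.0 on wildtype arrays 2 and 3. All double-knockout arrays were well above both wildtype arrays, and Ddr1 rose 2.34-fold (log2 fold change 1.23 ± 0.18, adjusted p = 0.00618). The call was lost in 1 of 17 alternatives, without wildtype array 2, where the log2 fold change was 1.12 and the adjusted p 0.0931. Its relative Ddr2, known from mesenchymal cells, had -0.01 ± 0.23.

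Itga11 encodes the alpha subunit of an integrin that binds fibrillar collagen. It read 9.74, 9.77, 9.59 and 9.57 in the double knockout, against 8.72 and 9.03 in wildtype. The groups did not overlap, and Itga11 rose 1.73-fold (log2 fold change 0.79 ± 0.15, adjusted p = 0.0169), with 0.89 on a second probe (adjusted p = 0.00807). The call of the first probe was lost in 5 of 17 alternatives. Without double-knockout array 1, wildtype array 2 or wildtype array 3 its adjusted p was 0.0510, 0.181 or 0.0526, without double-knockout arrays 2 and 3 together it was 0.0733, and the remaining loss was with the title number as a block. Pregranulosa markers, whose summed signal was 6348 to 7049 in the double knockout, against 3838 and 5358 in wildtype, moved in the same direction as Ddr1 and Itga11, and germ cell markers, at 2879 to 4425 in the double knockout, against 11431 and 13139 in wildtype, in the opposite one. The pregranulosa sum is mostly Amhr2, whose call held in 7 of 17 alternatives. Over the 7 pregranulosa markers the median log2 fold change was 0.43, with 0 negative and 2 passing. The part of either marker list in the receptor values was not tested.

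Of 11 tested collagen-degrading proteases and inhibitors, 0 passed, with a median log2 fold change of -0.05. Mmp2, a gelatinase, had -0.05 ± 0.16, and Mmp14, the membrane-bound protease that activates it, had 0.34 ± 0.16 (adjusted p = 0.238). Mmp14 read 12.89, 12.74, 12.58 and 12.75 in the double knockout, against 12.19 and 12.60 in wildtype, so that array 3 lay within the wildtype range. Of 14 tested genes of the TGF-beta pathway, known as an inducer of collagen genes, 0 passed, with a median of 0.04. The signal transducer Smad3 had 0.23 ± 0.17, and the receptor Tgfbr1 had -0.36 ± 0.14 with all double-knockout arrays below wildtype (adjusted p = 0.155).

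**Figure D4:**
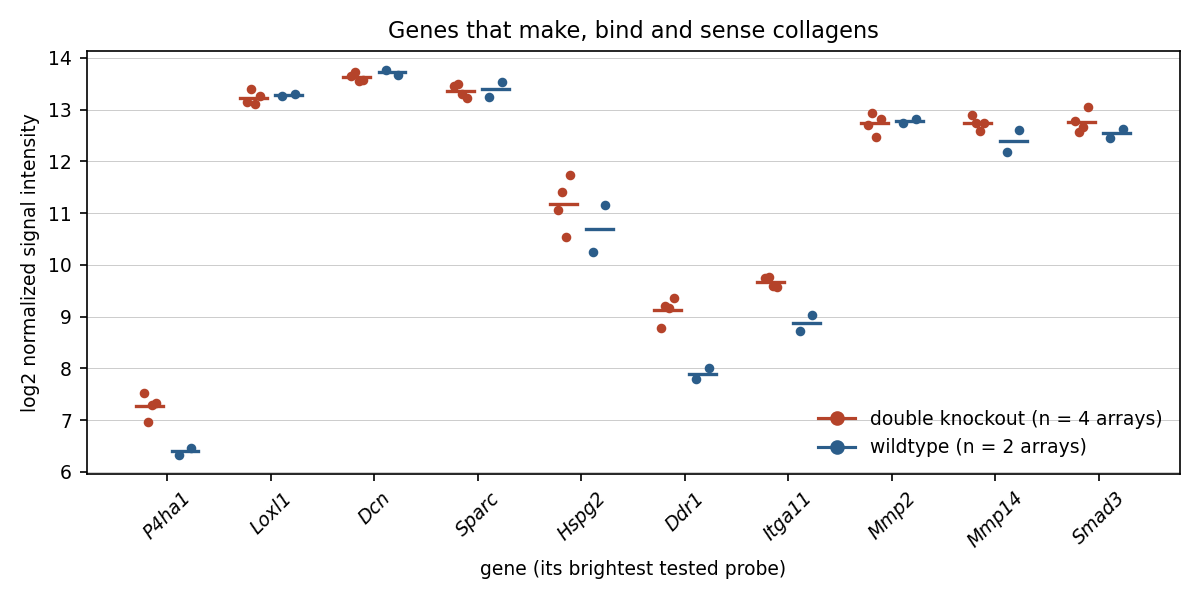
Log2 normalized signal (y axis) of 10 genes that make, bind, sense or degrade collagens or act in TGF-beta signalling, with 1 point per array, double knockout (4 arrays) left of wildtype (2 arrays), and bars at the group means. P4ha1, Ddr1 and Itga11 passed the test and lie wholly above wildtype; Loxl1, Dcn, Sparc, Hspg2, Mmp2, Mmp14 and Smad3 overlap with it.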

How the data were processed

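RNA of 6 newborn ovary samples was compared, 4 double knockout and 2 wildtype. Per the submitters' processing notes, GenomeStudio was used; no version is given. The raw table deposited by the authors holds an intensity per probe and array, neither background-subtracted nor normalized to judge by the values, and a detection score deposited beside it. The score rises with the signal and was therefore taken as 1 minus the detection p; all detection counts, the filter and the bounds rest on this reading. The authors' series matrix, a quantile-normalized intensity, served as an alternative; its scale is linear, uncentred and in the direction of the raw signals (Spearman 0.99999 on each array), with a median of 59.6 on double-knockout array 1 and 59.5 on each of the others, so none of these stays unknown. The background was corrected with limma 3.58.1 in R 4.3.3 (nec, which applies normexp using the detection p; offset 16), followed by quantile normalization and log2. Probes detected at p under 0.05 on at least 2 of 6 arrays went into 1 fit by genotype (lmFit, eBayes; 6 arrays, no covariate), and p-values were adjusted by Benjamini-Hochberg over all 21981 tested probes. An exact permutation test of 4 against 2 arrays cannot go below 0.0667 and was not used. Genes were represented by their tested probe with the highest mean. Each probe was named from the platform annotation. Probes are called bright or dim by their signal only, and no RNA level of 1 gene was set against that of another. A fold against a group without detection is a bound against the higher of the probe's own signal and the lowest detected signal. Marker sums are sums of normalized signal over the tested markers of a list.

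Every collagen gene was described. Of each pathway list the called members with the largest change were named, or the 2 brightest where none passed. The members and lists were chosen with earlier results of these data known. Arrays limit precision by their number.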

Additional observations from a re-analysis of the deposited data

Results flagged for a closer look

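Of 90 probes examined, 2 had 1 double-knockout array far from the other 3, a gap that chance gives about 1 group in 20. The brightest Col8a2 probe read 10.26 on double-knockout array 2, against 9.60 to 9.67 on the other double-knockout arrays, a gap of 0.885 of the whole range. The pregranulosa marker Wnt4 read 9.59 on double-knockout array 5, while the other double-knockout arrays read 9.90 to 9.93, a gap of 0.921 of the range. Neither gene's representative probe passed the genotype test.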

How the results depend on the processing

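The count of 1 collagen probe lower was 0 with 1 probe per gene, 75th percentile scaling, the authors' series matrix, no background correction, an offset of 50, a stricter detection filter (p under 0.01 on at least 4 arrays), the description number as a block, and without both double-knockout arrays 2 and 3, an alternative chosen after seeing the data. It ranged from 0 to 2 when single arrays were left out, and the count higher was 0 throughout. The 3 pathway genes higher became 1 with the title number as a replicate block and 0 to 4 with single arrays left out. The 0 pathway genes lower became 1 with 75th percentile scaling, no detection filter or the description number as a block, 2 with 1 probe per gene, an offset of 50 or array weights, and 3 with no background correction, the series matrix or without arrays 2 and 3 (0 to 3 with single arrays left out). The 795 lower and 803 higher probes of the array became 436 and 468 without arrays 2 and 3, and 111 to 688 and 113 to 755 with single arrays left out, lowest without wildtype array 2, where the lone wildtype array is assumed to vary like the others.

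Title and description number the arrays differently. In deviations from the mean of their own group, same-numbered arrays correlated at -0.11 and -0.03 by title and -0.11 and 0.11 by description. The deviations of the 2 wildtype arrays mirror each other, so these values cannot tell whether the numbers pair arrays. With the title number as a replicate block 449 probes were lower and 432 higher, and the 1 collagen probe was the dimmer Col5a2 probe (log2 fold change -1.04, adjusted p = 0.0435) instead of Col8a2. The P4ha1 call was lost with either block (adjusted p = 0.0924 by title, 0.0559 by description) and the Itga11 call with the title block (0.0819). Medians by class kept their sign when single arrays were left out, except the basement membrane median (-0.20 to 0.10). Of 1476 single-probe comparisons, 1356 kept direction and call, and 41 lost and 5 gained a call. In 74 the sign changed without a call in either fit, and 0 reversed with a call. Most of the 90 probes compared did not pass in the main fit, so most comparisons had no call to lose. The 41 lost calls came from 7 probes. Probes near background, Col8a2's among them, give bounds only. The causes were not tested.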

Other observations

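Some genes around the collagens lay just short of the threshold on the lower side; they were chosen after their values were seen. Sec23a, a coat protein of the vesicles that carry procollagen out of the endoplasmic reticulum, read 6.23, 6.03, 6.69 and 5.59 on double-knockout arrays 1, 2, 3 and 5, against 7.30 and 7.0 on wildtype arrays 2 and 3, a log2 fold change of -1.02 ± 0.27 (SE, adjusted p = 0.0544). Ctsk, the collagen-degrading protease cathepsin K, read 8.22, 9.0, 8.23 and 7.74 in the double knockout, against 9.29 and 9.33 in wildtype, a log2 fold change of -1.01 ± 0.29 (adjusted p = 0.0678). Colgalt1, which adds galactose to collagen hydroxylysine, had -0.49 ± 0.14 (adjusted p = 0.0656), and dermatopontin (Dpt), a fibril-binding protein, had -0.96 ± 0.31 (adjusted p = 0.0946). For each of these 4 genes all double-knockout arrays lay below both wildtype arrays. With the authors' series matrix or no background correction, Sec23a, Ctsk and Colgalt1 passed as lower and Dpt did not. With the stricter detection filter none of the 4 passed.

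On the higher side, the lysyl hydroxylase gene Plod2 read 7.77, 7.68, 7.49 and 7.96 in the double knockout, against 7.20 and 7.10 in wildtype, with a log2 fold change of 0.58 ± 0.16 (adjusted p = 0.0652). The galactosyltransferase gene Colgalt2 had 0.60 ± 0.18 (adjusted p = 0.0787) and Plod3 0.48 ± 0.16 (adjusted p = 0.104). For these 3 genes all double-knockout arrays lay above both wildtype arrays. With the authors' series matrix or no background correction, Plod2 passed as higher, while Colgalt2 and Plod3 did not. With the stricter detection filter none of the 3 passed. Of the other marker lists, 1 of 2 tested Schwann cell markers rose (Sox10, log2 fold change 0.85, adjusted p = 0.0116). The other, Cdh19, had -0.32 (adjusted p = 0.192) and was detected on 0 double-knockout and 2 wildtype arrays. Among blood and leukocyte markers 1 of 3 rose (Alas2, 1.35, adjusted p = 0.0405), and 0 of 4 skeletal muscle markers passed. The Sox10 call held in 14 of 17 alternatives and the Alas2 call in 10 of 17.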
